A study of Nicotiana tabacum with 9 samples.

Results

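Young leaves of the tobacco line G27 were compared with those of NC82, the name of a flue-cured *Nicotiana tabacum* cultivar, in a series on NtAN3 and the formation of leaf size. Each group has 3 libraries from leaves taken in the squaring period, the stage of bud formation, and no treatment was listed for either. The labels give G27 only as a genotype name, so its allele or construct, the promoter that drives it and the number of independent events behind it are not stated here. They also do not say whether the 3 libraries of a group came from separate plants, and p-values therefore measure the spread between these libraries, which may be technical. Another genotype, M21, also with 3 libraries, entered the same model and is used below for the direct difference between G27 and M21. The genes described are those with a normalized value of 1 or more in at least 3 of the 6 G27 and NC82 libraries, which were 32577 of the 69500 genes in the deposited table.

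AN3, also called GIF1, belongs to the SS18 family of co-activators of transcription. It has no DNA-binding domain of its own and acts with growth-regulating factors (GRFs), which bind DNA through a WRC domain and hold the co-activator through a QLQ domain. In Arabidopsis the complex recruits SWI/SNF chromatin remodellers and prolongs cell proliferation in young leaves, so that its loss gives small leaves and its overexpression large ones. *N. tabacum* is an allotetraploid, and most of its genes have a close copy from the other parental genome. How reads shared by such copies were divided is not given in the sources used here, so the value of a single copy is less certain than that of a family.

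The libraries had the profile of leaf. Chlorophyll a/b binding proteins and RuBisCO small subunit genes held 9.57% to 10.5% of the summed value of an NC82 library and 10% to 10.8% of that of a G27 library. Genes of seed storage proteins and oil bodies held 0.00272% to 0.00355%, and pollen-type genes 0.163% to 0.19%, of each of the 6 libraries. In whole leaves, fewer cells of a type and less RNA per cell cannot be told apart. The 10 highest genes in NC82 included 3 RuBisCO small subunit genes, 2 carbonic anhydrase genes, 2 ferredoxin genes and 2 genes of the photosystem II protein PsbR, and each of the 10 had an adjusted p above 0.05 between G27 and NC82. In a principal component analysis of the 6 libraries the first component (60.1% of the variance) separated G27 from NC82. The second (17.6%) set replicate 1 of both groups apart from NC82 replicate 3 and G27 replicate 2. Sequencing depths were not given, and from the steps between low values the libraries were estimated at 0.86 to 1.19 times the depth of NC82 replicate 1.

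The SS18 family, which holds AN3, was examined first. The table holds 6 of its genes, of which 4 were tested and 1 differed. Nitab4.5_0007901g0050 had normalized values of 0.34, 0.25 and 0.25 in the NC82 libraries and 760.1, 604 and 621 in the G27 libraries. The log2 change was 9.01 ± 0.11 (SE; limma on log2 of the value plus 1, adjusted p = 4.1e-12), the largest of all genes tested. In M21 the gene had values of 5.0, 5.8 and 4.32, so G27 also exceeded M21, by 6.78 ± 0.11 on the log2 scale (limma, adjusted p = 9.2e-11). The other SS18 genes stayed within narrow limits. Nitab4.5_0000319g0250, the most highly expressed of them in NC82, had values of 22.7, 25.7 and 23.2 in NC82 and 26.1, 23.7 and 25.6 in G27, and the groups overlapped (log2 change 0.07 ± 0.10, limma, adjusted p = 0.71). Nitab4.5_0001993g0030 and Nitab4.5_0000768g0010 had log2 changes of 0.06 ± 0.08 and -0.18 ± 0.12 (limma, adjusted p of 0.72 and 0.37). Neighbouring genes on the scaffold of Nitab4.5_0007901g0050 did not pass the test: Nitab4.5_0007901g0010, an EF-hand protein kinase, had a log2 change of 0.15 and Nitab4.5_0007901g0020, related to the release factor pelota, one of 0.06 (limma, adjusted p of 0.37 and 0.70). Among the genes of this scaffold given here, only the SS18 gene was called. Whether other annotated genes lie nearer to it is not given here. Whether the reads of the SS18 gene come from the endogenous locus or from an introduced copy cannot be told apart in a table of gene values.

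Of 25 genes described with QLQ or WRC domains, the domains of the GRFs that partner AN3, 8 were tested. They are called GRFs here from the domain description alone. The test called 2 higher and 1 lower, against 14.2% of all 32577 tested genes called in either direction. Both genes called higher passed the filter on low values only through their G27 libraries. Their calls are therefore not evidence that the list rose beyond that share. Among genes at 5 or more in at least 3 of the 6 libraries, 2 were tested, with 0 higher and 0 lower. Nitab4.5_0005167g0090 had values of 0.65, 0.34 and 0.45 in NC82 and 2.08, 2.33 and 2.10 in G27 without overlap, which gave a log2 change of 1.10 ± 0.15 (limma, adjusted p = 0.00055). M21 stood at 0.34, 0.22 and 0.85, below G27 (limma, adjusted p = 0.0011). The remaining calls were smaller. Nitab4.5_0004686g0010 rose from 0.75, 1.17 and 0.79 to 1.81, 1.64 and 1.36 (log2 change 0.45 ± 0.12, limma, adjusted p = 0.028), and lost its call without G27 replicate 1 (0.099), G27 replicate 2 (0.072), NC82 replicate 1 (0.09), NC82 replicate 3 (0.099) or the 3 libraries that stood apart from their groups in an earlier analysis, NC82 replicate 1, G27 replicate 1 and M21 replicate 3 (0.23). With array weights its log2 change was 0.29 (limma, adjusted p = 0.093). The earlier analysis that set the 3 libraries apart is not shown here. On the second principal component above, G27 replicate 1 lay at 20.5 and G27 replicate 2 at -22.0, so G27 replicate 1 alone did not stand apart there. Nitab4.5_0001426g0010 fell from 3.31, 3.36 and 3.25 to 2.56, 2.33 and 2.20 (log2 change -0.36 ± 0.09, limma, adjusted p = 0.018), with the call lost without G27 replicate 3 (0.066), NC82 replicate 2 (0.072), NC82 replicate 3 (0.053) or the same 3 libraries (0.058). The most highly expressed GRFs, Nitab4.5_0001494g0010 and Nitab4.5_0001033g0050, had log2 changes of -0.12 ± 0.08 and 0.04 ± 0.12 (limma, adjusted p of 0.38 and 0.88).

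**Figure D1:**
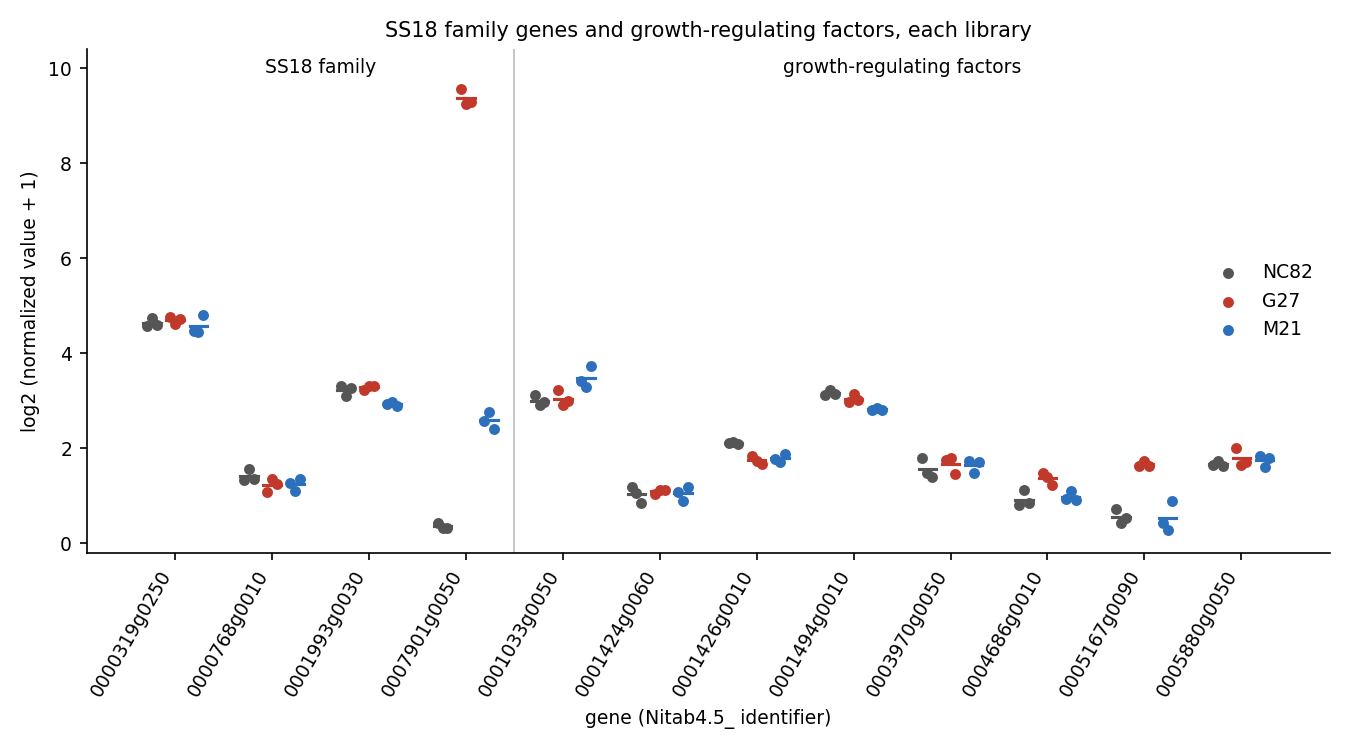
Expression of the 4 tested SS18 family genes (left) and 8 tested growth-regulating factors (right) as log2 of the normalized value plus 1. Points are libraries of NC82, G27 and M21, horizontal bars group means (n = 3). The G27 libraries of Nitab4.5_0007901g0050 lie above 9 on this scale, where NC82 lies below 1. For the other genes the G27 and NC82 means differ by at most 1.10.

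Across the transcriptome 4623 of 32577 genes passed the test, 2599 of them (7.98% of those tested) higher and 2024 (6.21%) lower in G27. Most changes were small. A change of 1 or more on the log2 scale was reached by 497 of the higher and 230 of the lower genes, together 2.23% of those tested, and one of 2 or more by 73 and 20. The G27 and NC82 values did not overlap for 30.6% of tested genes and for 4599 of the 4623 called. The share called varied little with level, from 12.8% of genes with a mean of 2 to 5 to 15.8% of those at 20 to 100. Its direction did vary: 506 of 5095 genes below 2 were higher and 265 lower, whereas at 100 or more 54 of 1158 were higher and 116 lower. Among the 497 genes that rose by 1 or more, G27 replicate 2 was the highest of the 3 G27 libraries for 251, G27 replicate 1 for 177 and G27 replicate 3 for 69. At the extremes, 10 genes were listed at 0 in the 3 NC82 libraries with 1 or more in each G27 library, and 4 genes the reverse.

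**Figure D2:**
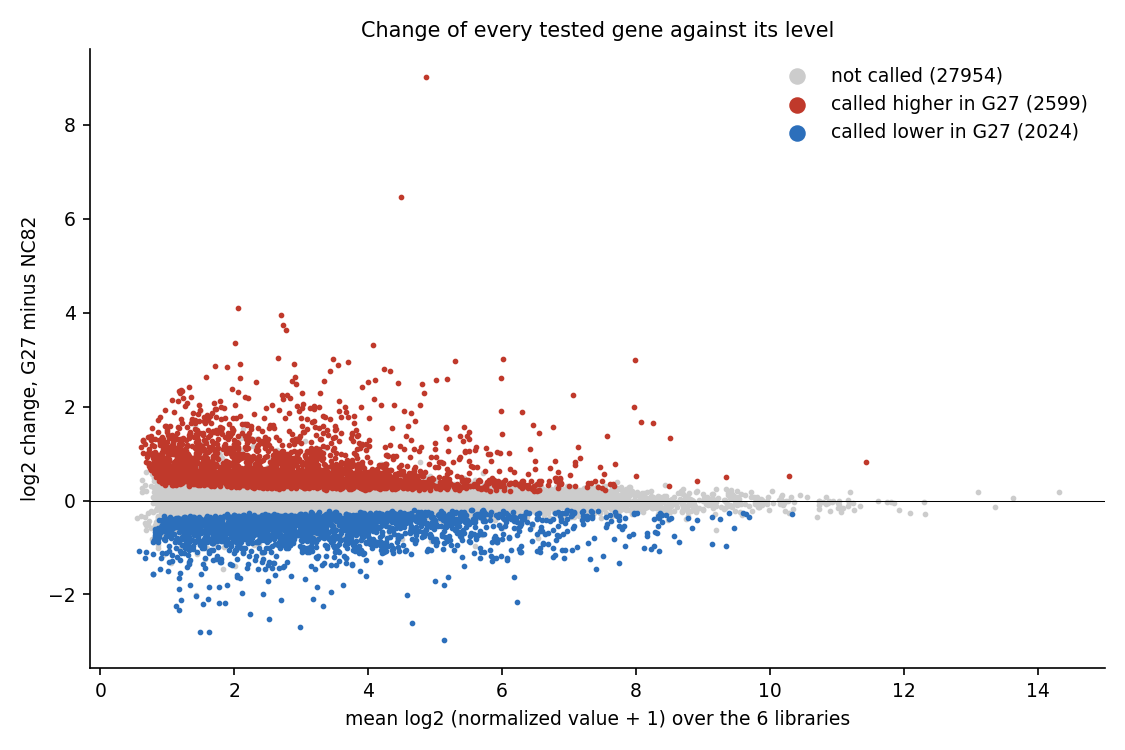
Log2 change (G27 minus NC82) of every tested gene against its mean log2 level over the 6 libraries, with 2599 genes called higher in red and 2024 called lower in blue. Called genes occur at every level, and the isolated points at 9.01 and 6.46 are Nitab4.5_0007901g0050 and Nitab4.5_0000930g0090.

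The 20 largest rises among genes whose groups did not overlap were each 2.76 or more on the log2 scale, and 5 of them carry no description. After the SS18 gene the largest was such an undescribed gene, Nitab4.5_0000930g0090, at 1.18, 1.49 and 1.5 in NC82 and 230, 193 and 204 in G27 (log2 change 6.46 ± 0.18, limma, adjusted p = 2e-08). It stayed at 0.74, 2.27 and 1.33 in M21. Nitab4.5_0007303g0080, a protein with the DNA-binding domain of FAR1, a far-red light signalling factor, was listed at 0 in the 3 NC82 libraries. Its values were 19.1, 17.6 and 12.7 in G27 and 4.01, 8.21 and 20.7 in M21.

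A Dicer gene, Nitab4.5_0001003g0020, which by its RNase III and PAZ domains belongs to the enzymes that cut double-stranded RNA into small RNAs, was measured at 2.81, 3.18 and 2.78 in NC82 and 23.7, 53.3 and 22.7 in G27. The log2 change was 3.02 ± 0.25 (limma, adjusted p = 1.5e-05). A second Dicer gene, Nitab4.5_0019786g0010, rose from 6.22, 5.57 and 5.19 to 31.7, 59.1 and 28.0 (log2 change 2.53 ± 0.22, limma, adjusted p = 2.3e-05). For both genes G27 replicate 2 was the highest library, and the other G27 libraries still lay above every NC82 value. Neither gene rose in M21, where the first stood at 3.18, 2.87 and 2.99 and the second at 6.38, 5.66 and 7.72, and G27 exceeded M21 by 2.98 and 2.35 on the log2 scale (limma, adjusted p of 0.0001 and 0.00017). Of 39 tested genes of the small RNA machinery, which also include Argonautes and RNA-dependent RNA polymerases, 7 rose, and the median log2 change of the list was 0.13. Only the 2 Dicer genes reached a change of 1, and 4 rather than 7 genes were called without G27 replicate 1, G27 replicate 2, NC82 replicate 2 or NC82 replicate 3.

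Several more of the largest rises shared the high value in G27 replicate 2. A glutathione S-transferase, Nitab4.5_0000641g0050, of the enzymes that conjugate glutathione to toxic compounds, stood at 0.38, 1.23 and 0.94 in NC82 and 17.5, 38.8 and 18.6 in G27 (log2 change 3.74 ± 0.26, limma, adjusted p = 5.9e-06). A 2-oxoglutarate-dependent dioxygenase, Nitab4.5_0002015g0090, stood at 0.33, 0.12 and 0.35 against 8.61, 21.3 and 9.12 (3.36 ± 0.26, limma, adjusted p = 1e-05). A BAHD-type acyltransferase, Nitab4.5_0000130g0220, stood at 1.02, 1.35 and 1.25 against 14.5, 25.2 and 13.3 (3.03 ± 0.18, limma, adjusted p = 2.2e-06). All 3 also exceeded M21, by 2.28, 3.17 and 1.21 on the log2 scale (limma, adjusted p of 0.00044, 9.5e-05 and 0.0022). In contrast, an alpha-amylase-type gene of glycoside hydrolase family 13, Nitab4.5_0003541g0040, was even across libraries at 2.02, 1.51 and 1.61 in NC82 and 19.9, 18.5 and 19.3 in G27 (2.90 ± 0.09, limma, adjusted p = 2.3e-08). Its level in M21 was 17.1, 16.4 and 18.5, and G27 and M21 did not differ by the test (log2 difference 0.14 ± 0.09, limma, adjusted p = 0.36).

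The 20 largest falls were 2.01 or more in size. A gene with a CBS domain, Nitab4.5_0002752g0140, stood at 5.60, 6.79 and 6.90 in NC82 and at 0.07, 0.05 and 0.08 in G27 (log2 change -2.80 ± 0.13, limma, adjusted p = 4.5e-07). A MADS-box factor, Nitab4.5_0000154g0260, of a family with many regulators of flowering and organ identity, had values of 3.92, 3.30 and 5.11 in NC82 and was listed at 0 in all G27 libraries and at 0, 0 and 0.08 in M21. A nucleoside phosphatase of the GDA1/CD39 family, Nitab4.5_0001574g0130, fell from 16.0, 21.2 and 20.7 to 1.26, 3.83 and 1.76 (log2 change -2.69 ± 0.22, limma, adjusted p = 1.6e-05). Genes of phosphate use were prominent in this set, with 3 PHOSPHO-type phosphatases and 2 SPX proteins, described further below. Another 3 of the 20 were RanBP2-type zinc finger genes that neighbour each other, Nitab4.5_0003558g0070, Nitab4.5_0003558g0080 and Nitab4.5_0003558g0090. The last of these fell from 6.48, 7.08 and 6.85 to 0.97, 0.45 and 0.75 (log2 change -2.19 ± 0.15, limma, adjusted p = 5.3e-06), with M21 between the groups at 2.03, 3.07 and 1.81 and above G27 (limma, adjusted p = 0.0027).

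Gene lists built from domain descriptions are given next, and their counts are read against the 7.98% of all tested genes called higher and the 6.21% called lower. The median log2 change of all tested genes was 0.047.

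Among genes of pathogen perception and defence, most lists of receptors, WRKY factors and secreted hydrolases were called mainly in the upward direction, while protease inhibitors, thaumatins and Bet v I proteins were mixed. Plants sense microbes at the cell surface through receptor kinases and inside the cell through NB-ARC proteins, and WRKY factors and secreted hydrolases act downstream. Among receptors, 38 of 64 kinases with bulb-type lectin or S-locus domains rose and 2 fell (median log2 change 0.49), with 1 fall when any library but G27 replicate 1 was left out. Of 22 wall-associated kinases 13 were called, each of them higher (median 0.46). Of 245 receptor kinases with leucine-rich repeats 47 rose and 6 fell (median 0.07), and of 136 NB-ARC proteins 37 rose and 1 fell (median 0.15). The leucine-rich repeat falls numbered 3 without G27 replicate 3, NC82 replicate 1 or NC82 replicate 2, and the NB-ARC fall was lost without any of these. Without the 3 libraries that stood apart the rises numbered 29 of the leucine-rich repeat kinases and 21 of the NB-ARC proteins. The receptor genes were expressed at low levels. Nitab4.5_0001380g0040, a lectin or S-locus type kinase, stood at 0.26, 0.18 and 0.14 in NC82 and 4.84, 4.68 and 2.90 in G27 (log2 change 2.08 ± 0.16, limma, adjusted p = 9.7e-06). Among genes at 5 or more in at least 3 of the 6 libraries, 7 of 14 lectin or S-locus kinases rose and 1 fell. Of 7 wall-associated kinases 5 rose and 0 fell. Of 74 leucine-rich repeat kinases 16 rose and 4 fell, and of 15 NB-ARC proteins 5 rose and 0 fell. Over all 18476 genes tested at this level 1533 rose and 1387 fell.

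Of 80 WRKY transcription factors 41 rose and 1 fell, and the median log2 change was 0.35. The largest rise was that of Nitab4.5_0004977g0010, at 1.39, 1.49 and 3.57 in NC82, 18.1, 18.6 and 16.3 in G27 and 9.32, 6.42 and 8.85 in M21 (log2 change 2.63 ± 0.22, limma, adjusted p = 1.5e-05). G27 was higher than M21 by 1.03 (limma, adjusted p = 0.011). The single fall, of Nitab4.5_0003540g0070 (log2 change -0.60 ± 0.18, limma, adjusted p = 0.047), lost its call when any of 5 libraries, all but G27 replicate 1, was left out (0.075 to 0.15). Of 33 VQ proteins, which bind WRKY factors, and NPR-type regulators, a family that includes salicylic acid receptors, 17 were called, each of them higher (median 0.40). Among genes at 5 or more, 18 of 25 WRKY factors rose and 1 fell, and 10 of 14 VQ and NPR-type genes rose and 0 fell. Heat shock factors rose in 6 of 30 cases. The strongest, Nitab4.5_0000090g0270, went from 3.04, 3.13 and 1.92 to 17.8, 19.6 and 13.9 (log2 change 2.30 ± 0.15, limma, adjusted p = 4.7e-06).

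Secreted defence proteins reached higher levels than the receptors. Of 12 tested CAP-domain proteins, the family of pathogenesis-related protein 1, 7 were called, each of them higher by 1 or more (median 1.56). Nitab4.5_0003771g0010 stood at 76.4, 93.5 and 99.6 in NC82 and 564, 911 and 706 in G27 (log2 change 2.98 ± 0.16, limma, adjusted p = 1.1e-06). Nitab4.5_0004861g0030 stood at 16.96, 20.2 and 29.6 against 144, 233 and 178 (3.01 ± 0.20, limma, adjusted p = 4.3e-06). Neither gene differed by the test between G27 and M21 (limma, adjusted p of 0.058 and 0.22). Of 27 chitinases, which cut a fungal wall polymer, 13 rose and 3 fell. Nitab4.5_0003779g0100, of family 18, rose from 10.1, 13.8 and 13.4 to 72.2, 79.2 and 82.4 (2.56 ± 0.11, limma, adjusted p = 3.1e-07), whereas Nitab4.5_0000022g0230, of family 19, fell from 16.4, 14.7 and 15.5 to 9.95, 8.48 and 9.15 (-0.70 ± 0.10, limma, adjusted p = 0.00089). The latter stood at 19.7, 26.7 and 23.6 in M21, above G27 by 1.25 on the log2 scale (limma, adjusted p = 0.0001). Of 49 family 17 hydrolases, which include beta-1,3-glucanases, 12 rose and 1 fell. Nitab4.5_0008527g0010 rose from 10.5, 14.5 and 14.2 to 89.5, 131 and 110.1 (2.97 ± 0.14, limma, adjusted p = 6.7e-07). Of 38 class III peroxidases 10 rose and 5 fell. Other families with pathogenesis-related members went both ways. Of 17 protease inhibitors 2 rose and 4 fell, of 23 thaumatins 5 rose and 3 fell, and of 22 Bet v I and MLP proteins 6 rose and 4 fell. Among genes at 5 or more, 1 of the Bet v I and MLP proteins rose and 2 fell.

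**Figure D3:**
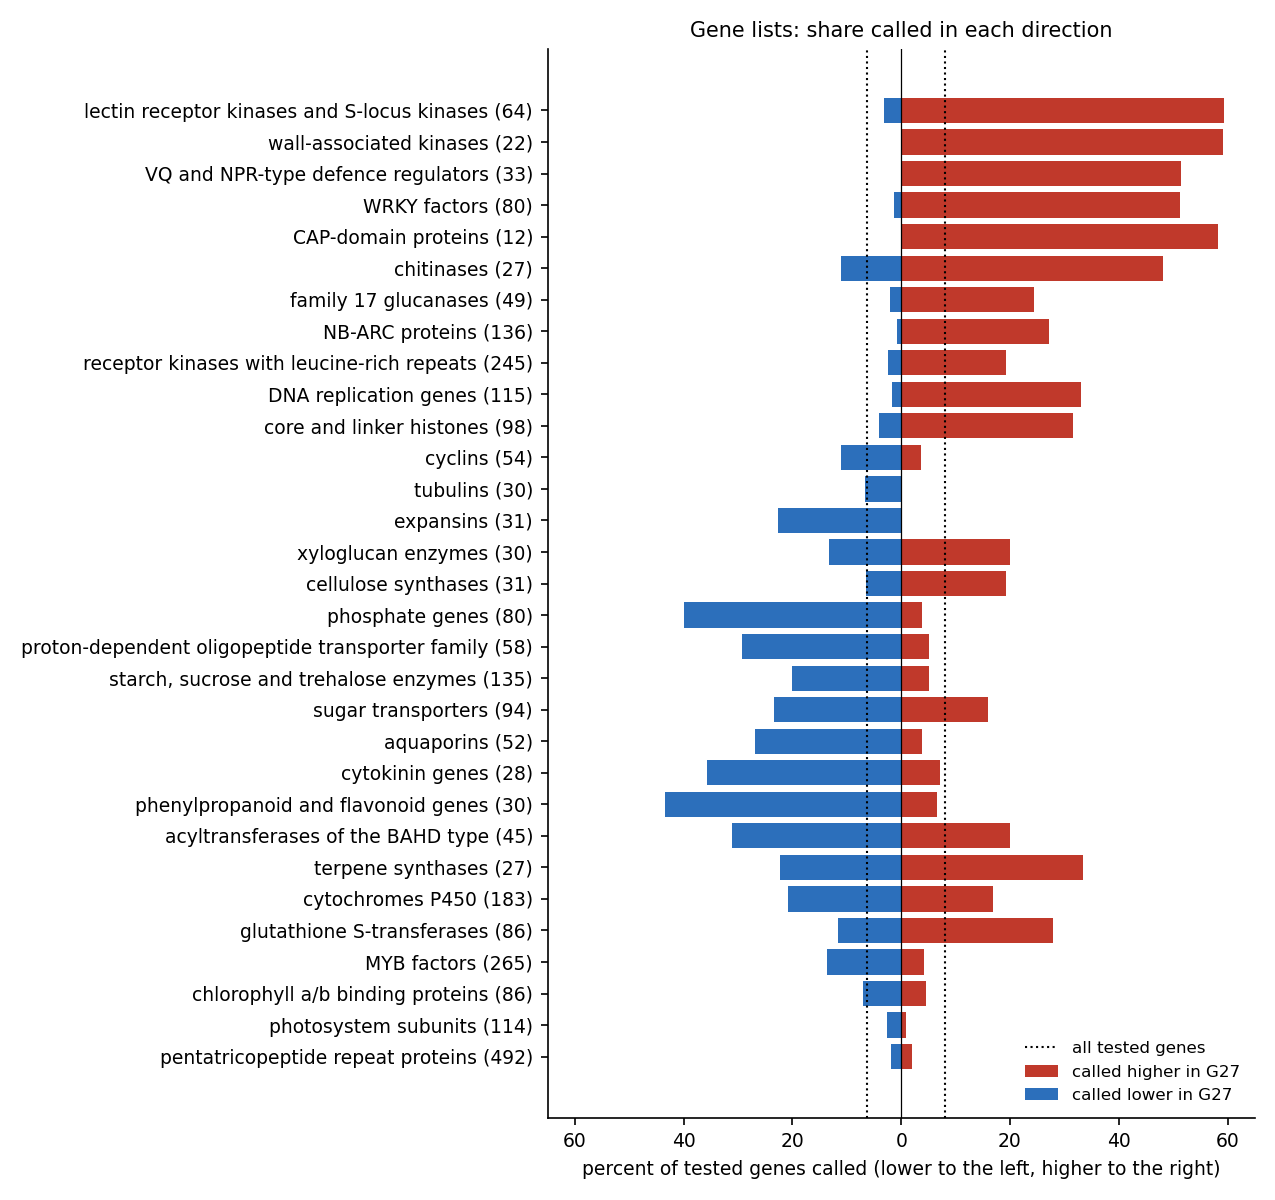
Percent of the tested genes of each list that were called higher (red, to the right) or lower (blue, to the left) in G27 than in NC82, with the number tested in parentheses. Dotted lines mark the 7.98% called higher and 6.21% called lower among all tested genes. The receptor, WRKY, VQ and NPR-type, CAP-domain, chitinase and glucanase lists extend to the right, phosphate, oligopeptide transporter, aquaporin, cytokinin and phenylpropanoid lists to the left, and photosystem and pentatricopeptide repeat lists stay inside the dotted lines.

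Genes of DNA replication and chromatin assembly, which mark proliferating cells, rose in many cases but by little. Of 115 DNA replication genes 38 rose and 2 fell. The median log2 change was 0.25, and no called change reached 1. The 2 genes of PCNA, the sliding clamp of the replication fork, went from 13.4, 16.7 and 14.8 to 18.8, 22.3 and 18.8 (Nitab4.5_0000744g0120, log2 change 0.39 ± 0.09) and from 16.8, 20.6 and 19.8 to 26.3, 28.7 and 25.4 (Nitab4.5_0011134g0030, 0.47 ± 0.10; limma, adjusted p of 0.017 and 0.010). The call of the former was lost without G27 replicate 2 (0.058), NC82 replicate 1 (0.055) or NC82 replicate 3 (0.054). A subunit of the origin recognition complex, Nitab4.5_0000703g0120, rose from 1.51, 1.08 and 1.13 to 2.61, 2.46 and 2.70 (0.69 ± 0.11, limma, adjusted p = 0.0016). The count of rises varied with the libraries used. It was 21 without G27 replicate 1 or G27 replicate 2 and 33 without G27 replicate 3. It was 20 without NC82 replicate 1, 22 without NC82 replicate 2 and 14 without the 3 libraries that stood apart. Median-ratio scaling gave 38 and array weights 46. Rises over all genes also went from 2599 to 1963 without G27 replicate 1 and to 2152 without G27 replicate 2. The list median was 0.21, 0.27 and 0.26 without G27 replicate 1, 2 and 3. One of the 2 genes that fell, Nitab4.5_0001308g0160, is described as a stearoyl-ACP desaturase and was taken in by a domain shared with ribonucleotide reductase. M21 stood below G27 for the 3 replication genes named as rising (log2 difference 0.39 to 0.43, limma, adjusted p of 0.014, 0.030 and 0.046).

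Of 98 histone genes 31 rose and 4 fell (median log2 change 0.24). The largest rise, of the histone H2B gene Nitab4.5_0004987g0080, was from 9.19, 9.85 and 7.58 to 16.9, 13.3 and 18.2 (0.79 ± 0.12, limma, adjusted p = 0.0013). Rises numbered 20 without NC82 replicate 2 and 20 after median-ratio scaling, where the direction of the list stayed the same. The 4 histone genes that fell all lay on the scaffolds described below on which nearly every gene was lower. Of 54 cyclins 2 rose and 6 fell, with 1 and 2 without the 3 libraries that stood apart and the opposite order, 9 and 6, with array weights, and of 58 kinesins 2 rose and 3 fell. Of 30 tubulins 2 were called, both lower, with 0 left without G27 replicate 3 and 1 without NC82 replicate 3.

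Cell wall and water channel genes did not move as a group: expansins and aquaporins were called mostly lower, cellulose synthases more often higher and xyloglucan enzymes in both directions. Of 31 expansins, which loosen walls during cell enlargement, 7 were called, each of them lower. Nitab4.5_0003845g0060, the largest fall, went from 22.1, 24.7 and 23.0 to 13.5, 11.6 and 11.02 (log2 change -0.90 ± 0.08, limma, adjusted p = 3.8e-05), and M21 stood at 12.1, 12.97 and 13.1. The number of expansins called lower was 2 without G27 replicate 2, 3 without NC82 replicate 2 and 4 without G27 replicate 3, NC82 replicate 1 or NC82 replicate 3. Of 52 aquaporins, channels for water, 14 fell and 2 rose, and the falls numbered 9, 8 and 6 without G27 replicate 3, NC82 replicate 2 and NC82 replicate 3, the rises 4 without G27 replicate 3. Nitab4.5_0000101g0120 fell from 12.2, 14.5 and 15.5 to 7.57, 7.66 and 6.54 (-0.86 ± 0.10, limma, adjusted p = 0.00021). Xyloglucan enzymes, which cut and rejoin wall polymers, went both ways, with 6 of 30 higher and 4 lower. The falls numbered 2 without G27 replicate 3 or NC82 replicate 1, but 6, equal to the rises, without G27 replicate 1. After median-ratio scaling 6 rose and 5 fell. Nitab4.5_0002630g0010 rose from 17.3, 21.4 and 21.7 to 55.6, 67.1 and 57.7 (1.53 ± 0.10, limma, adjusted p = 2.6e-06) and was higher still in M21, at 96.8, 96.2 and 96.4 (G27 minus M21 -0.68, limma, adjusted p = 0.0014). Nitab4.5_0000926g0150 fell from 44.0, 41.1 and 39.1 to 23.1, 22.6 and 21.9 (-0.85 ± 0.07, limma, adjusted p = 2.2e-05), and at 41.8, 44.5 and 38.5 M21 overlapped NC82, with G27 lower than M21 by 0.85 (limma, adjusted p = 0.00011). Of 31 cellulose synthases 6 rose and 2 fell, or 1 without G27 replicate 2, G27 replicate 3, NC82 replicate 2 or NC82 replicate 3.

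Genes of phosphate use formed the list with the most falls of 1 or more apart from the cytochromes P450, 9 against 10. In plants SPX proteins sense inositol pyrophosphates and restrain the phosphate starvation response, SPX-EXS proteins of the PHO1 type export phosphate, and secreted phosphatases and glycerophosphodiesterases release it from organic compounds. Of 80 tested genes 32 fell and 3 rose (median log2 change -0.12), and no fall lay on the low scaffolds described below. All 3 called genes of the 5 PHOSPHO-type phosphatases, known in Arabidopsis as markers of phosphate starvation, were lower. Nitab4.5_0009182g0010 fell from 88.2, 96.5 and 107.7 to 11.7, 12.3 and 10.7 (-2.96 ± 0.09, limma, adjusted p = 3.3e-08). M21 stood at 16.7, 19.6 and 16.5, above G27 (limma, adjusted p = 0.0036). Nitab4.5_0000255g0110 fell from 49.5, 64.6 and 72.2 to 7.60, 12.2 and 8.27 (-2.62 ± 0.16), and Nitab4.5_0014046g0010 from 126, 166 and 186 to 30.2, 43.1 and 31.4 (-2.16 ± 0.16; limma, adjusted p of 2.4e-06 and 6.5e-06).

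Of 12 genes with an SPX domain alone 6 fell, and of 8 with SPX and EXS domains 5 fell. Nitab4.5_0000859g0200 fell from 18.0, 22.0 and 22.7 to 2.95, 3.95 and 4.03 (-2.24 ± 0.12, limma, adjusted p = 1e-06). Nitab4.5_0008963g0030 fell from 12.2, 11.9 and 13.5 to 1.83, 2.14 and 2.34 (-2.13 ± 0.11, limma, adjusted p = 1e-06). More highly expressed SPX genes fell by less, as Nitab4.5_0000209g0010 did from 145, 148 and 152 to 84.0, 89.7 and 90.1 (-0.75 ± 0.06, limma, adjusted p = 1.2e-05). Of 31 purple acid phosphatases 12 fell, by 0.33 to 0.82. Of 7 glycerophosphodiester phosphodiesterases 2 fell and 2 rose, and Nitab4.5_0002172g0020 went from 165, 165 and 163 to 73.4, 67.9 and 71.1 (-1.20 ± 0.06, limma, adjusted p = 1.2e-06). Of 7 phosphate transporters and permeases 2 fell and 1 rose. The one that rose, Nitab4.5_0001005g0050, went from 13.2, 19.1 and 21.7 to 26.6, 36.2 and 27.5 (0.72 ± 0.16, limma, adjusted p = 0.010). The remaining 2 falls were of transporters described for sugar phosphates.

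**Figure D4:**
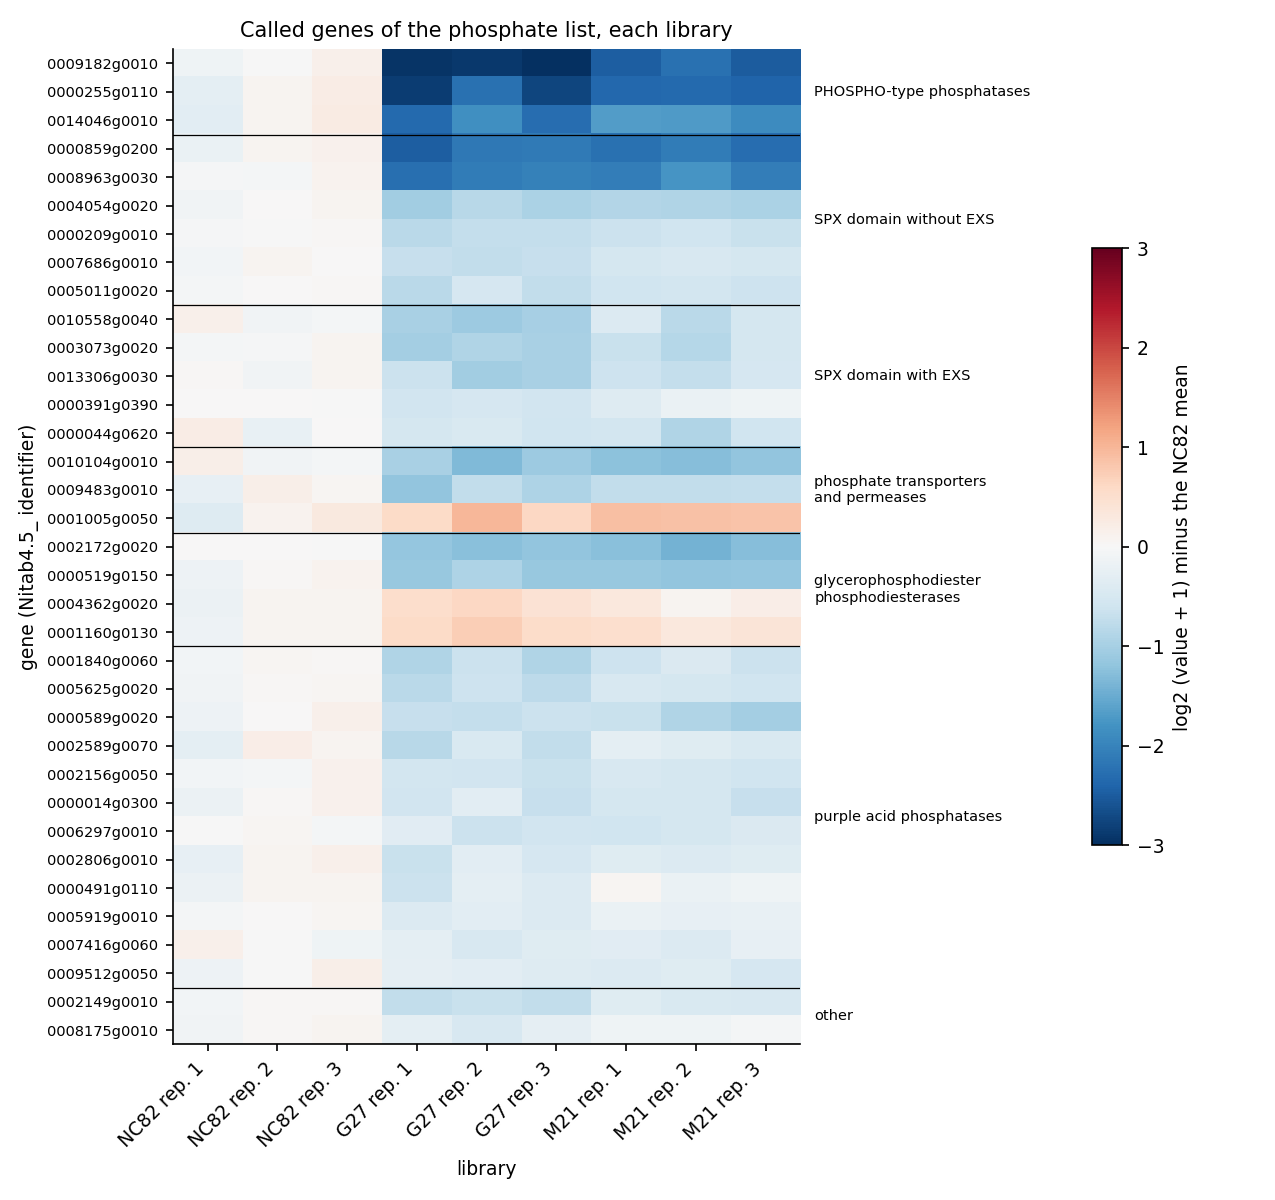
The 35 called genes of the phosphate list, grouped by domain, as log2 of the value plus 1 minus the NC82 mean in each of the 9 libraries, with lower values in blue and higher in red on a scale from -3 to 3. The G27 columns are blue for 32 genes, darkest for the PHOSPHO-type phosphatases and 2 SPX genes, and red for 3.

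Transport and carbon genes were called in both directions, with more falls than rises in some lists and not in others. In the proton-dependent oligopeptide transporter family, which in plants includes nitrate transporters, 17 of 58 genes fell and 3 rose. Nitab4.5_0000003g0010 fell from 4.08, 3.64 and 4.43 to 1.31, 1.08 and 1.32 (-1.17 ± 0.10, limma, adjusted p = 2e-05). Of 135 enzymes of starch, sucrose and trehalose metabolism 27 fell and 7 rose, with 17 falls without G27 replicate 3 or NC82 replicate 2. A starch synthase type glycosyltransferase, Nitab4.5_0003419g0070, fell from 82.3, 113 and 117 to 36.9, 53.7 and 40.2 (-1.23 ± 0.15, limma, adjusted p = 0.00026). A sucrose-phosphate synthase, Nitab4.5_0000009g0480, the enzyme that commits triose phosphates to sucrose, fell from 61.1, 56.2 and 52.9 to 18.5, 15.0 and 16.6 (-1.71 ± 0.10, limma, adjusted p = 2.3e-06) and lies on a low scaffold. Of 94 sugar transporters 22 fell and 15 rose. Nitab4.5_0002589g0090, a SWEET-type sugar exporter, fell from 3.96, 3.71 and 4.66 to 1.63, 1.75 and 1.54 (-0.95 ± 0.11, limma, adjusted p = 0.00014), with M21 at 3.51, 2.64 and 3.30 and above G27 (limma, adjusted p = 0.0034). Nitab4.5_0000066g0190, a major facilitator of the sugar and inositol type, rose from 2.52, 2.61 and 2.73 to 7.43, 8.26 and 7.27 (1.26 ± 0.09, limma, adjusted p = 6e-06). Of 85 amino acid transporters 17 fell and 7 rose, or 11 and 5 without NC82 replicate 2. Of 131 ABC transporters 17 rose and 14 fell, which turned to 16 and 18 after median-ratio scaling and 21 and 27 with array weights. Of 56 nitrogen genes 5 rose and 4 fell, with 2 falls without G27 replicate 3 or NC82 replicate 3.

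Specialised metabolism held some of the highest shares of called genes. In the phenylpropanoid and flavonoid list of 30 genes, 13 fell and 2 rose. The falls included a phenylalanine ammonia-lyase, Nitab4.5_0005320g0020, the entry enzyme of the pathway, from 21.2, 27.6 and 32.2 to 10.8, 13.8 and 11.5 (-1.09 ± 0.14, limma, adjusted p = 0.00029). They also included a chalcone synthase type gene, Nitab4.5_0014110g0010, from 23.9, 29.8 and 33.1 to 12.9, 15.5 and 11.6 (-1.06 ± 0.14, limma, adjusted p = 0.00030). Another member of each enzyme family moved the opposite way. The ammonia-lyase Nitab4.5_0012382g0010 rose from 4.12, 4.05 and 4.43 to 9.81, 8.10 and 8.36 (0.90 ± 0.10, limma, adjusted p = 0.00013). A chalcone or stilbene synthase type gene, Nitab4.5_0003185g0100, rose from 1.24, 1.04 and 1.14 to 7.68, 5.04 and 6.29 (1.76 ± 0.12, limma, adjusted p = 6.2e-06). Of 45 BAHD acyltransferases 14 fell and 9 rose, of 27 terpene synthases 9 rose and 6 fell, and of 183 cytochromes P450 31 rose and 38 fell. The terpene synthase Nitab4.5_0005904g0070 rose from 2.98, 6.02 and 7.24 to 18.1, 27.5 and 21.3 (1.91 ± 0.23, limma, adjusted p = 0.00019). The terpene synthase Nitab4.5_0004068g0030 fell from 15.2, 14.5 and 15.8 to 9.16, 6.59 and 5.53 (-1.02 ± 0.15, limma, adjusted p = 0.00078) and stood at 14.5, 17.1 and 19.7 in M21, above G27 (limma, adjusted p = 0.00081). Of 86 glutathione S-transferases 24 rose and 10 fell, 14 and 1 of them by 1 or more, and the largest falls were of translation elongation factor 1B gamma chains, which share a domain with them and lie on a low scaffold. Falls numbered 6 without G27 replicate 3 or NC82 replicate 3.

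Hormone and regulatory genes were mixed. Of 28 cytokinin genes 10 fell and 2 rose. Nitab4.5_0001297g0040, of the LOG family that releases active cytokinin, fell from 6.49, 8.62 and 9.25 to 2.40, 2.76 and 1.84 (-1.45 ± 0.13, limma, adjusted p = 2.9e-05). A cytokinin dehydrogenase type gene, Nitab4.5_0005779g0060, of the enzymes that break the hormone down, fell from 6.65, 6.56 and 6.44 to 3.03, 3.15 and 3.27 (-0.86 ± 0.08, limma, adjusted p = 3.2e-05). Both rises were of LOG family genes and depended on single libraries: the call of Nitab4.5_0017527g0010 was lost without G27 replicate 1, G27 replicate 3, NC82 replicate 2 or NC82 replicate 3 (0.083 to 0.14), and that of Nitab4.5_0001790g0010 without any of the 6 libraries (0.057 to 0.13). Of 39 jasmonate genes 3 rose and 6 fell, the latter led by the Tify repressor Nitab4.5_0001546g0010 from 13.02, 15.9 and 16.4 to 5.47, 5.97 and 4.71 (-1.33 ± 0.11, limma, adjusted p = 1.9e-05). Of 265 MYB factors 36 fell and 11 rose. Nitab4.5_0001908g0030 fell from 14.1, 14.3 and 13.1 to 4.03, 3.55 and 3.45 (-1.67 ± 0.10, limma, adjusted p = 2.1e-06), and at 6.94, 5.98 and 7.88 M21 was above G27 (limma, adjusted p = 0.00089). MYB rises numbered 7 without NC82 replicate 2. Of 128 AP2/ERF factors 22 rose and 6 fell, and of 100 bZIP factors 4 rose and 12 fell. The AP2/ERF falls numbered 1 to 3 without G27 replicate 1, G27 replicate 3, NC82 replicate 2 or NC82 replicate 3, and the bZIP falls 7 without NC82 replicate 3, while the bZIP rises numbered 2 without G27 replicate 1, NC82 replicate 2 or NC82 replicate 3.

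Of the phosphatidylethanolamine-binding proteins, the family that contains the flowering activator FT and the repressor TFL1, 5 were tested and 3 were called, each of them lower. Nitab4.5_0001003g0220 fell from 25.3, 21.9 and 18.0 to 12.3, 9.42 and 11.2 (-0.92 ± 0.14, limma, adjusted p = 0.0011), with M21 at 17.8, 14.2 and 19.4 and above G27 (limma, adjusted p = 0.020). Nitab4.5_0011525g0020 fell from 10.9, 9.91 and 11.8 to 8.18, 6.27 and 8.40 (-0.47 ± 0.11, limma, adjusted p = 0.014) and stood at 13.1, 11.3 and 11.9 in M21, also above G27 (limma, adjusted p = 0.0051). The identifiers do not show which of the subfamilies these genes belong to. The other called gene, Nitab4.5_0010534g0010, fell from 1.90, 1.74 and 2.63 to 1.33, 0.27 and 0.52 (-0.89 ± 0.26, limma, adjusted p = 0.042) and lost its call without any library but G27 replicate 1 (0.071 to 0.14). Without NC82 replicate 3, of the 3 calls only that of Nitab4.5_0001003g0220 was made.

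Photosynthesis and organelle RNA lists had shares of called genes below the 14.2% of all tested genes. Of 86 chlorophyll a/b binding proteins 4 rose and 6 fell, with 2 rises without G27 replicate 2, G27 replicate 3 or NC82 replicate 1. Of 114 photosystem subunits 1 rose, 0 without NC82 replicate 3 and 2 without G27 replicate 2, and 3 fell. A PsbP protein of the oxygen-evolving complex, Nitab4.5_0005601g0020, had the largest fall, at 369, 410.1 and 433 in NC82 and 249, 250.2 and 249 in G27 (-0.69 ± 0.08, limma, adjusted p = 0.00021). Of 492 pentatricopeptide repeat proteins, which process organelle RNA, 10 rose and 9 fell, with 5 rises without NC82 replicate 3 and with more falls than rises, 14 against 10, after median-ratio scaling. Of 104 proteasome subunits 4 rose and 2 fell, with 2 rises without G27 replicate 2, NC82 replicate 1 or NC82 replicate 2 and 1 fall without G27 replicate 1 or NC82 replicate 3. Of 300 eukaryotic-type ribosomal proteins 14 rose and 4 fell, and the rises numbered between 2, without G27 replicate 1 or NC82 replicate 2, and 26, without NC82 replicate 1. Rises were 8 without G27 replicate 3, 5 without NC82 replicate 3 and 25 without the 3 libraries that stood apart. With array weights, which raised the rises over all genes from 2599 to 4255, 85 of the 300 rose and 6 fell, so the ribosomal count depends strongly on how the libraries are weighted.

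The falls were unevenly placed in the genome. Of 2036 scaffolds of the Nitab4.5 annotation with 5 or more tested genes, the median scaffold had 0% of its genes called lower, but on 33 scaffolds 60% or more were, and on 9 of these every tested gene was. Near this threshold, which was chosen after the values were seen, the lowest of the 33 scaffolds had 60% and the highest of the others 50% of genes called lower. The 33 scaffolds hold 281 tested genes, of which 245 (87.2%) were called lower and 1 higher. Off them 1779 of 32296 genes (5.51%) were called lower and 2598 higher. The contrast between these shares follows in part from how the 33 scaffolds were picked. These scaffolds thus held 12.1% of all genes called lower. Only 6 scaffolds had 60% or more of their genes called higher, each with 5 or 6 tested genes. That count was 3 without NC82 replicate 2, 15 with array weights and 2 without the filter on low values, and none of the 6 was among those found when only genes at 5 or more were tested.

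The genes of the 33 scaffolds stood at a similar fraction of the NC82 level. The ratio of the G27 to the NC82 mean had a median of 0.531 and quartiles of 0.478 and 0.593, and among the 95 genes at 10 or more in NC82 a median of 0.532 with quartiles of 0.466 and 0.578. The median ratio of genes off these scaffolds was 1.04. That G27 lay lower on these scaffolds follows from how they were picked. Library by library, the median of the value relative to the NC82 mean was 0.999, 1.00 and 1.01 in NC82, 0.540, 0.535 and 0.514 in G27, and 0.524, 0.496 and 0.545 in M21. M21 therefore stood at the level of G27 and not of NC82. Of the 281 genes 20 differed between G27 and M21, 11 of them higher and 9 lower in G27, where 12% of all tested genes differed between these lines. The 281 genes carry 221 different descriptions.

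On scaffold Nitab4.5_0000324 all 11 tested genes fell. They include a plastid fibrillin gene, Nitab4.5_0000324g0040, from 23.5, 26.9 and 28.4 to 10.44, 12.6 and 11.4, with M21 at 10.7, 11.2 and 10.9. They also include Nitab4.5_0000324g0250, an EMSY-type Tudor protein, from 8.15, 7.60 and 7.47 to 3.73, 3.76 and 3.17, with M21 at 3.56, 3.77 and 3.58. On scaffold Nitab4.5_0003782 all 12 fell, among them genes of histone H4 (Nitab4.5_0003782g0010), from 194, 214 and 231 to 101, 132 and 107, and of histone H2A (Nitab4.5_0003782g0030), from 124, 126 and 130 to 74.2, 80.4 and 74.6. On scaffold Nitab4.5_0000009, with 20 tested genes, 19 fell. One is the ribosomal protein gene Nitab4.5_0000009g0420, from 73.7, 76.2 and 81.7 to 39.0, 43.9 and 41.4, and another the sucrose-phosphate synthase gene above. The scaffold of the RanBP2-type genes, Nitab4.5_0003558, differed from the rest with a median ratio of 0.0973 in G27 and 0.339 in M21.

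The lists of falling genes include some of these. Of 8 translation factors that fell 6 lie on the 33 scaffolds, as do 4 of 4 histone genes, 2 of 6 TCP, SBP and YABBY factors, 2 of 4 ribosomal proteins and 4 of 9 pentatricopeptide repeat proteins. These lists were named for their high shares, and the share over all falls was 12.1%. Lists with more falls had few there or none: 2 of 36 MYB factors and 1 of 27 starch, sucrose and trehalose enzymes. The number was 0 of 38 cytochromes P450, 0 of 17 oligopeptide transporters and 0 of 14 aquaporins. The count of low scaffolds was 30 to 33 when any of the 6 libraries was left out and 36 after median-ratio scaling. It was 17 when only genes at 5 or more were tested, where fewer scaffolds reach 5 tested genes. Without the filter on low values the count was 29, of which 19 were among the 33. Since G27 and M21 share the NC82 libraries, a level particular to NC82 and a level shared by both lines cannot be told apart, and the positions of these scaffolds on chromosomes were not analysed here.

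**Figure D5:**
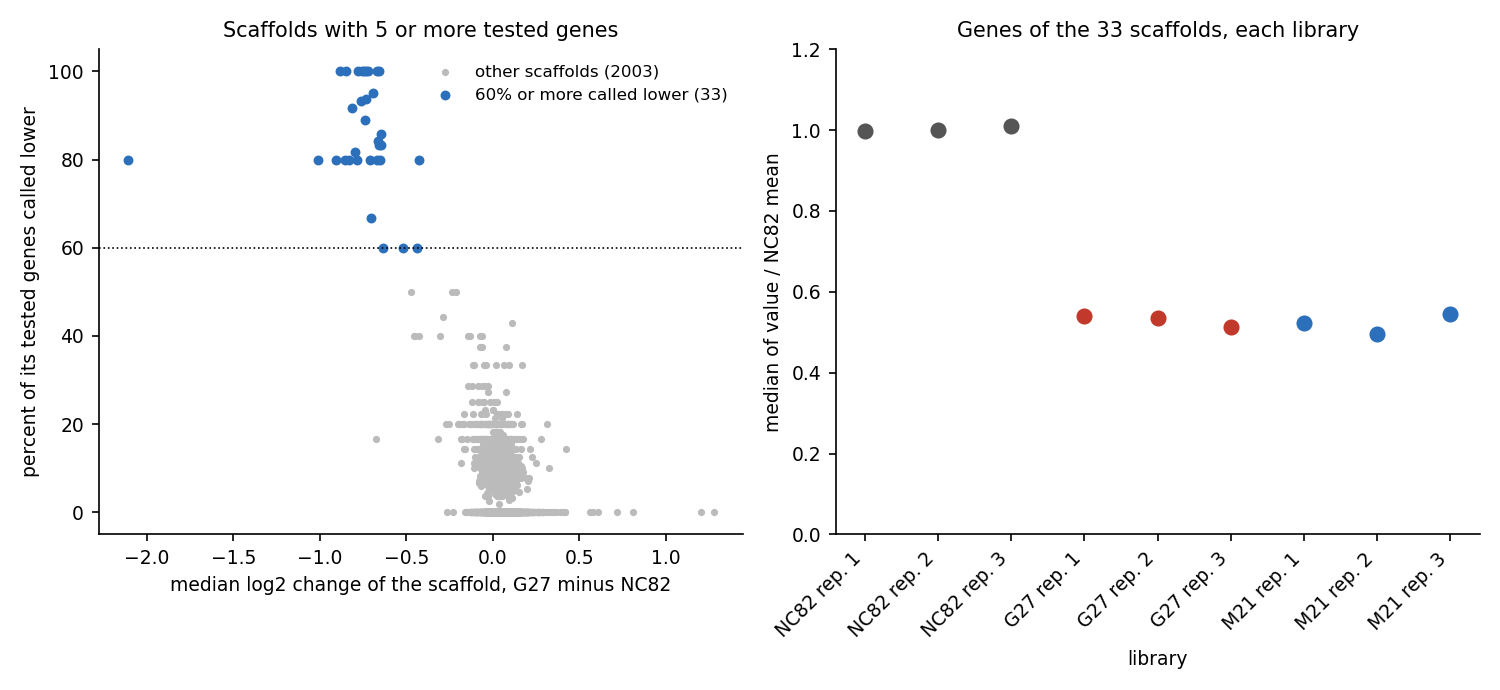
Left, each of the 2036 scaffolds with 5 or more tested genes, by its median log2 change (G27 minus NC82) and the percent of its tested genes called lower, with the 33 scaffolds at 60% or more in blue. Right, for the 281 tested genes of the 33 scaffolds, the median of the value divided by the NC82 mean in each library. G27 libraries lie at 0.514 to 0.540 and M21 libraries at 0.496 to 0.545.

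The larger changes were also set against the direct difference between G27 and M21. Of the 497 rises of 1 or more, 89 were higher and 42 lower in G27 than in M21 by the test. Of the 230 falls of 1 or more, 81 were lower and 6 higher in G27 than in M21. These genes, and the 20 largest rises and falls below, were picked by the same G27 libraries that enter the comparison with M21. The counts are thereby tilted towards a larger change in G27. A call here says that the lines differed and not that M21 stood at the NC82 level, and a gene without a call is not shown to be equal in both. Of the 20 largest rises 10 were higher in G27 than in M21, among them the SS18 gene, the undescribed Nitab4.5_0000930g0090, the Dicer gene Nitab4.5_0001003g0020 and a ribosomal protein gene of the L10/L12 type, Nitab4.5_0004967g0010. The last stood at 0.41, 0.23 and 0.06 in NC82, 7.66, 11.5 and 5.45 in G27 and 0.88, 0.20 and 0.24 in M21 (G27 minus M21 2.65 ± 0.24 on the log2 scale, limma, adjusted p = 0.00013). A gene with a domain of translation initiation factor 2 gamma, Nitab4.5_0000070g0130, had a like pattern at 0.74, 0.43 and 0.70 in NC82, 4.82, 5.89 and 2.64 in G27 and 0.70, 0.70 and 0.84 in M21 (1.59 ± 0.20, limma, adjusted p = 0.00068). Of the 20 largest falls 11 were lower in G27 than in M21. These include Nitab4.5_0000978g0060, a protein with a thioredoxin-like fold, at 39.7, 51.1 and 51.3 in NC82, 10.2, 11.4 and 11.1 in G27 and in between, at 22.2, 20.2 and 21.2, in M21 (G27 minus M21 -0.90 ± 0.10, limma, adjusted p = 0.00038). The CAP-domain, glucanase and SPX genes named above as the largest of their lists did not differ between the lines by the test, with adjusted p from 0.058 to 0.89.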

How the data were processed

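The values are a normalized signal for each gene in each library, as the authors deposited it. Its unit is not named, and TPM and FPKM could not be told apart from library sums of 771390 to 790816. Tools named in the submitters' processing notes are HISAT2, StringTie and RSEM. Versions, settings, the genome build and the use of strand are not stated in what was used here. The columns of group means were not used. Genes were described by the table's domain names, since its gene names are empty. The RefSeq gene table used here matched 0 of the identifiers, so no sequences are printed.

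Log2 of the value plus 1 was fitted over 9 libraries with limma 3.58.1 in R 4.3.3 (lmFit and eBayes, with a trend of variance on level) for G27 minus NC82 and G27 minus M21. P-values were two-sided, adjusted by Benjamini-Hochberg over the 32577 genes, and called under 0.05. The pseudocount of 1 understates changes of low genes. In simulated data of 32577 genes, 100 were changed by a log2 of 1 and 100 by a log2 of 2. Of each set 100% were recovered, with 10 false calls in the whole run. The adjustment limits false calls to a share of all calls. That count therefore does not carry over to the far larger number of calls in the real data. Changes were planted only in genes above a set mean level, so recovery among low genes was not tested. The simulated noise was independent between genes and libraries, so false calls from variation that genes of a library share were not tested either. Summaries and figures used Python 3.11.15, pandas 2.3.3, numpy 2.4.6 and matplotlib 3.10.9.

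The genes and the 117 lists were chosen with earlier results of these data known, and list patterns were revised after the descriptions were read. Named genes are the SS18 and GRF genes, up to 2 called genes per list and direction with the largest change, the 20 largest rises and falls without overlap, and the 10 highest in NC82. The scaffold genes, the neighbours of the SS18 gene, the PCNA genes, Nitab4.5_0011525g0020, Nitab4.5_0000209g0010 and Nitab4.5_0002172g0020 were chosen after their values were seen. Alternatives covered pseudocount, filter, scaling, weights, trend, a replicate block and left-out libraries.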

Additional observations from a re-analysis of the deposited data

How the results depend on the processing

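The count of 4623 called genes was 3332 to 4262 when any of the 6 libraries was left out, with 1871 to 2289 higher, 1461 to 1973 lower and 710 to 751 changed by 1 or more on the log2 scale. Array weights gave 7692 calls (4255 higher, 3437 lower), of which 4536 were among the 4623, and testing only genes at 5 or more gave 2920 (1533 higher, 422 by 1 or more), where fewer genes were tested. A pseudocount of 0.1 raised the count of changes of 1 or more from 727 to 1234 and one of 0.5 to 973, since low genes are then compressed less. Median-ratio scaling turned the excess of rises, 2599 against 2024, into 2299 against 2558 as it lowered the median change from 0.047 to 0, and over genes above 5, a choice made after seeing the data, gave 2477 against 2407. Without the 3 libraries that stood apart 1901 rose and 1849 fell. Without the low scaffolds, also chosen after seeing the data, 2552 rose and 1745 fell. A replicate block gave 4474 calls, 4181 of them shared. The values do not settle whether the labels' replicate numbers pair the samples. Deviations from the group mean correlated at 0.376, 0.147 and -0.010 for equal numbers. The first of these, for replicate 1, was the highest of all G27 and NC82 pairs, whereas G27 replicate 2 correlated best with NC82 replicate 3 (0.296). Of 432 named called genes 363 kept their call under every alternative that tested them, and no named called gene changed sign. Read counts were not given, so differences among genes at low levels carry no counting interval.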
